A study of Mus musculus with 30 samples.

Results

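Collagens and the other matrix proteins of the nerve were followed through RNA sequencing libraries of mouse sciatic nerve axoplasm. The group was defined by gene name: all collagen chains, the microfibril (Mfap) and fibulin (Fbln) genes, the Adamts, Mmp, Timp and P4ha families, and Dcn, Fmod, Lum, Bgn, Ogn, Prelp, Sparc, Fn1, Fbn1, Eln, Lox and Tnc. It held 136 transcripts of 93 genes, of 20423 transcripts of 14741 genes listed in all. Of the 136 transcripts, 93 were classed as protein-coding and 36 as retained-intron forms, and 27 genes had 2 or more listed transcripts. All 4 tables listed 79 of them, and 31 were not listed in the table of inputs.

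Mouse sciatic nerve taken 7 days after a crush of the thigh portion (injured) was compared with uninjured nerve (naive). Nerves were ground in a transport buffer, and the supernatant, called axoplasm, went into an immunoprecipitation (IP) of nucleolin or of PTBP1, both RNA-binding proteins. A blocked IP used antibody already occupied by its blocking peptide, and input is RNA of the extract itself. With 2 conditions these made 10 groups of 3 libraries, 30 in all, each from a pool of 10 nerves, and the submitters describe the replicates as independent. The sources used here give no strain, sex or age. The counts summed over listed transcripts ran from 7536033 to 22919174 per library.

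Collagens are triple-helical proteins that are hydroxylated, secreted, trimmed and crosslinked into fibrils, sheets or beaded filaments, and small leucine-rich proteoglycans coat the fibrils and set their width. In peripheral nerve, fibroblasts of the endoneurium and epineurium, perineurial cells and Schwann cells make this matrix. After a crush the nerve fibres beyond it break down, macrophages enter, and matrix is both degraded and laid down along the path of regrowing axons.

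The extract carried RNA of many nerve cells besides axons. The summed level of 7 tested transcripts of axon markers was 148 to 202 CPM (counts relative to the library size, after the libraries had been scaled to each other) in injured inputs and 646 to 944 CPM in naive inputs. Sncg alone made up 21.2% to 28.6% of the injured and 71.7% to 85.9% of the naive sums, and the 6 others summed to 107 to 144 CPM in injured and 128 to 183 CPM in naive inputs. Of these 7 axon transcripts 1 rose and 2 fell, with a median log2 fold change of 0.21. For the 7 transcripts of Schwann cell markers the sums were 4563 to 7043 CPM in injured inputs and 26333 to 49211 CPM in naive inputs. Matrix transcripts took 1.42%, 3.20% and 4.50% of all counts in injured inputs 1, 2 and 3, against 5.09%, 5.91% and 6.58% in naive inputs 1, 2 and 3. In every injured input the share was below that of every naive input. In such bulk samples, fewer cells of a type and less RNA per cell cannot be told apart.

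The first comparison asked how the matrix transcripts of the extract differed 7 days after crush. Among those that fell were the fibril proteoglycans Ogn, Fmod, Prelp, Lum and Dcn, most type IV and type VI collagen chains, the microfibril protein Mfap5 and the gelatinase Mmp2. Among those that rose were the collagenases Mmp8, Mmp13 and Mmp14 and the collagen Col10a1. Of 105 listed transcripts 101 were tested (76 genes), of which 14 rose and 34 fell. The threshold here and throughout was a Benjamini-Hochberg adjusted p of 0.05, taken over all 14095 transcripts tested, from edgeR's quasi-likelihood test. Over all transcripts 14.5% rose and 13.4% fell (27.8% called in all). The median log2 fold change was -0.23 over the matrix transcripts and 0.00 over all. All 3 injured libraries lay above all 3 naive ones for 20 of the 101 and below them for 39, against 22.5% and 21.9% of all transcripts. With transcripts summed by gene, 10 of 76 matrix genes rose and 29 fell, where 1935 of all 11594 genes rose and 1805 fell.

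**Figure D1:**
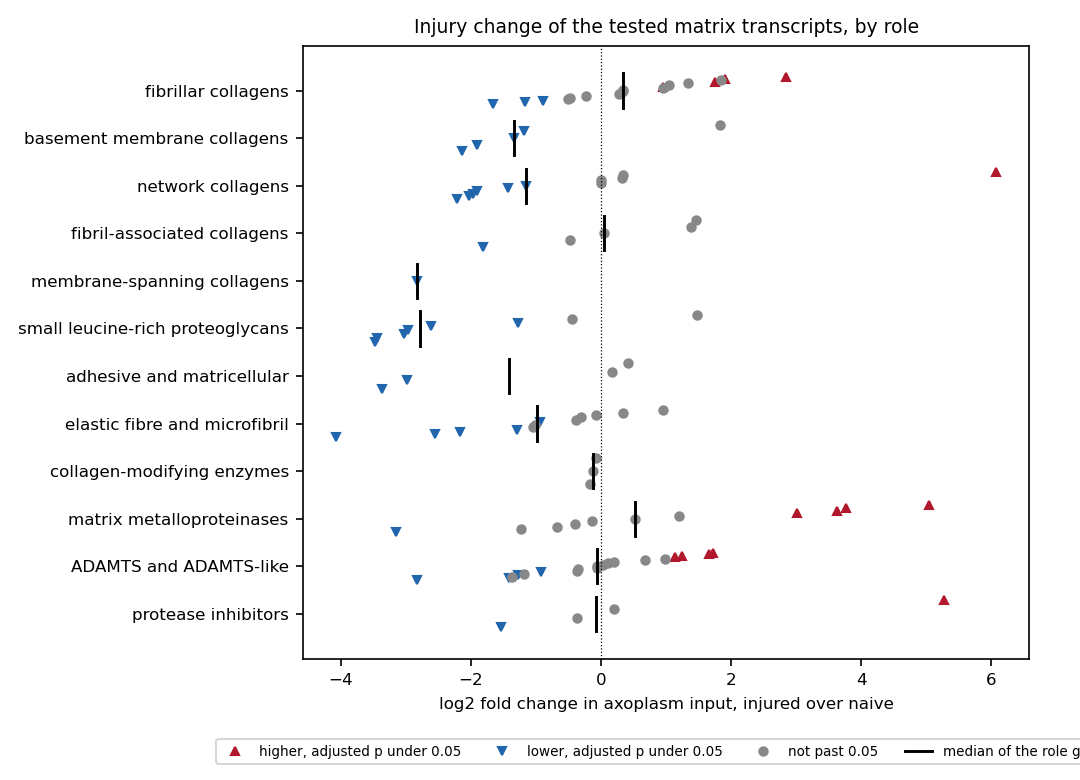
Log2 fold change in axoplasm input, injured over naive (horizontal axis), of the 101 tested matrix transcripts, in 12 role groups (vertical axis). Each point is 1 transcript, red for a rise and blue for a fall at an adjusted p under 0.05, grey otherwise, and the black bar is the median of the group; the small leucine-rich proteoglycans have the median of -2.79, and 6 of their 8 transcripts fell.

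Levels per kilobase of transcript ranked Ogn first in naive inputs at 2325 CPM per kb, followed by Col1a2 at 1973, Col3a1 at 1891, Lum at 1642 and Col1a1 at 841 CPM per kb. In injured inputs the order was Col1a2 at 1387, Col1a1 at 1066, Lum at 677 and Col3a1 at 595 CPM per kb, and Ogn was sixth at 283 CPM per kb. Osteoglycin thus led the naive order and stood below both type I collagen chains in injured nerve.

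Small leucine-rich proteoglycans bind fibrillar collagens and regulate fibril growth, and 6 of 8 tested transcripts fell. Ogn (osteoglycin; chromosome 13, 49608046 to 49624501 on GRCm38, 7 exons) had 356, 480.4 and 1341 CPM in injured inputs 1, 2 and 3, against 5692, 5452 and 6754 CPM in naive inputs (log2 fold change -3.04, SE 0.43, adjusted p = 0.000332). Fmod (fibromodulin; chromosome 1, 134037254 to 134048277) had 6.92, 12.8 and 9.73 CPM in injured inputs and 97.7, 112 and 118 CPM in naive inputs (log2 fold change -3.45, SE 0.29, adjusted p = 9.31e-06). For both genes the 2 groups were far apart, and injured input 3 was the highest of its group for Ogn but not for Fmod. Prelp, a proteoglycan that links collagen to basement membranes, had 48.7, 58.8 and 66.1 CPM in injured inputs, against 279.6, 435 and 643 CPM in naive inputs (log2 fold change -2.96, SE 0.31, adjusted p = 3.8e-05). Lum (lumican) fell less, with 1456, 1887 and 1627 CPM in injured inputs and 3567, 4029 and 4466 CPM in naive inputs (log2 fold change -1.28, SE 0.23, adjusted p = 0.0014). The groups of Prelp and Lum did not overlap either.

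Both listed transcripts of Dcn (decorin) fell, the more abundant one with 28.7, 5.65 and 10.6 CPM in injured inputs and 135, 83.5 and 46.9 CPM in naive inputs (log2 fold change -2.62, SE 0.54, adjusted p = 0.00345) and the other with a log2 fold change of -3.48. The annotation holds 5 Dcn transcripts, so these levels are not those of the whole gene. Bgn (biglycan) differed from the rest of the group: its coding transcript had 349.8, 444 and 579 CPM in injured inputs and 699, 627 and 544 CPM in naive inputs, the groups overlapped, and the difference did not pass (log2 fold change -0.45, SE 0.24, adjusted p = 0.188). The other tested Bgn transcript had the opposite sign and did not pass either (log2 fold change 1.48, adjusted p = 0.085).

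**Figure D2:**
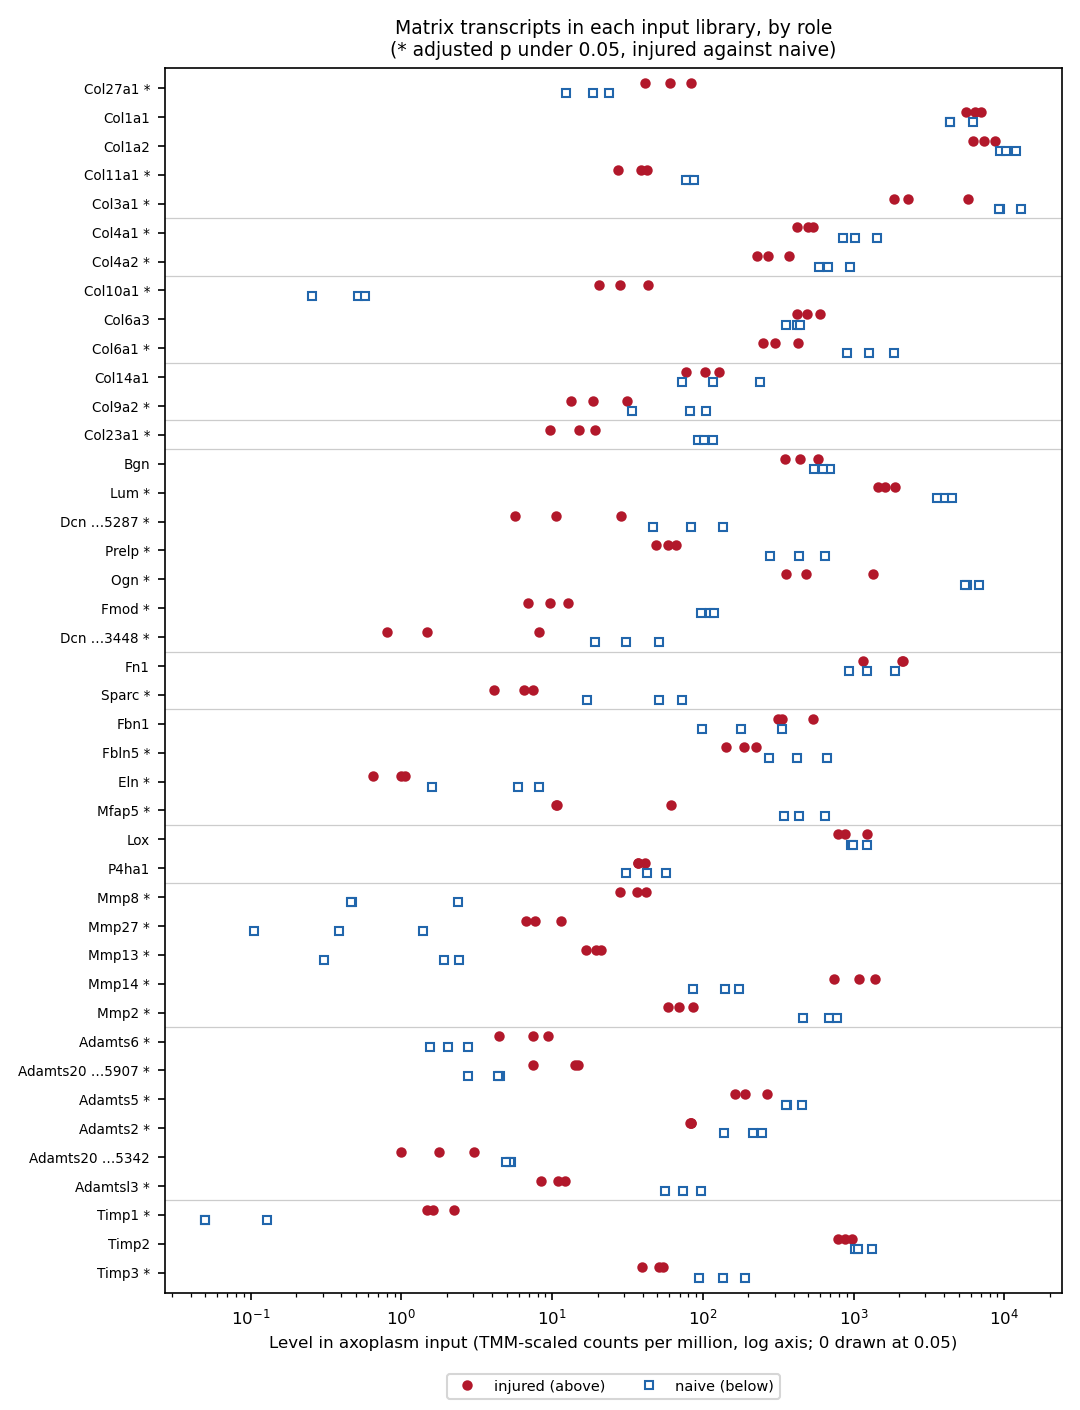
Level of 42 named matrix transcripts in each input library (horizontal log axis, TMM-scaled CPM; 0 is drawn at 0.05), grouped by role. Red dots are the 3 injured and blue squares the 3 naive inputs, and an asterisk marks an adjusted p under 0.05; Col10a1 and Mmp8 lie far to the right in injured inputs and Fmod, Ogn and Mfap5 far to the left, while the dots and squares of Col1a1 overlap.

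Fibrillar collagens form the bulk of nerve collagen, and of 18 tested transcripts 4 rose and 3 fell (1 and 2 with library totals alone). Neither of the type I chains, the most abundant ones in injured nerve, passed. Col1a1, the alpha 1 chain of type I collagen, had 6431, 6980.4 and 5556 CPM in injured inputs and 4379, 4354 and 6224 CPM in naive inputs (log2 fold change 0.34, SE 0.25, adjusted p = 0.335), with overlapping groups. Its partner Col1a2 had 6245, 7358 and 8649 CPM in injured inputs and 9366, 10337 and 11953 CPM in naive inputs (log2 fold change -0.51, SE 0.25, adjusted p = 0.149), without overlap but past no threshold. Col3a1, the chain of type III collagen, fell: its coding transcript had 1855, 2292 and 5777 CPM in injured inputs and 9379.98, 9236 and 12953 CPM in naive inputs (log2 fold change -1.67, SE 0.39, adjusted p = 0.00717). Injured input 3 stood well above the other injured inputs, and without injured input 2 the adjusted p of Col3a1 was 0.0515. Col5a3, a chain of type V collagen, fell by 0.90 on the log2 scale and the coding form of Col11a1, of type XI, fell by 1.18, whereas Col5a1 (0.31) and the coding transcript of Col5a2 (-0.23) did not pass. Col27a1, a fibrillar collagen known from cartilage, rose, with 83.6, 60.9 and 41.0 CPM in injured inputs and 12.3, 23.8 and 18.7 CPM in naive inputs (log2 fold change 1.75, SE 0.34, adjusted p = 0.0026).

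Within 3 genes, transcripts were called in opposite directions. The retained-intron form of Col3a1 rose to 54.4, 32.4 and 58.7 CPM in injured inputs, against 28.0, 25.1 and 22.1 CPM in naive inputs (log2 fold change 0.95, SE 0.30, adjusted p = 0.0326), while its coding form fell. For Col11a1 the retained-intron form rose (log2 fold change 2.84, SE 0.86, adjusted p = 0.0266) on 58 counts over the injured and 17 over the naive inputs, and for Adamts20 a coding form rose (log2 fold change 1.66, SE 0.47, adjusted p = 0.0207) and a retained-intron form fell (log2 fold change -1.41, SE 0.48, adjusted p = 0.0443). A retained-intron form of Col27a1 rose (log2 fold change 1.90, SE 0.64, adjusted p = 0.0443) along with its coding form. These 5 calls changed with the libraries used. The Col3a1 retained-intron form was no longer past the threshold without injured input 1 or 3 or any single naive input (adjusted p up to 0.122), and the Col11a1 form without injured input 1 or 2 or naive input 2 or 3 (up to 0.110). The Col27a1 form lost its call without any single input but naive input 1 (up to 0.169). The rising Adamts20 form lost its call without injured input 2 or 3 or naive input 2 or 3 (up to 0.0978), and the falling one without any single injured input or naive input 2 or 3 (up to 0.184). Over all 22 tested retained-intron forms of matrix genes 3 rose and 3 fell, where 186 of all 1829 such transcripts rose and 53 fell. The median log2 fold change was 0.18, against 0.22 over all 1829.

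Basement membrane collagens surround each Schwann cell with its axon, blood vessels and the perineurium. Of 5 tested transcripts 4 fell. Col4a1 had 421, 535 and 497 CPM in injured inputs and 852, 1029 and 1422 CPM in naive inputs (log2 fold change -1.18, SE 0.24, adjusted p = 0.00339), and Col4a2, its partner in the common type IV trimer, had 229, 371 and 272 CPM in injured inputs and 594, 672 and 954 CPM in naive inputs (log2 fold change -1.35, SE 0.26, adjusted p = 0.00239). Both pairs of groups were separate and the 2 genes changed by similar amounts. Col4a3 and Col4a4, chains of the type IV network of specialised basement membranes such as the glomerulus, fell by 1.91 (Col4a3) and fell by 2.14 (Col4a4) on the log2 scale. They were far less abundant, Col4a4 with 2.23, 3.71 and 6.49 CPM in injured and 20.5, 16.04 and 20.0 CPM in naive inputs. Col18a1, the remaining one, had 5.69, 0.565 and 0.767 CPM in injured and 0.706, 0.261 and 0.819 CPM in naive inputs and did not pass.

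Type VI collagen is a trimer of 3 chains that forms beaded filaments around fibres and cells of the endoneurium, and its chains differed in their calls. Col6a1 fell, with 251, 299 and 429.7 CPM in injured inputs and 903, 1263 and 1859.7 CPM in naive inputs (log2 fold change -2.04, SE 0.30, adjusted p = 0.000441). All 3 listed transcripts of Col6a2 fell, the most abundant with 111, 131 and 235 CPM in injured inputs and 496, 736 and 978 CPM in naive inputs (log2 fold change -2.21, SE 0.33, adjusted p = 0.000456), and Col6a5, a chain that can replace Col6a3, fell by 1.97 on the log2 scale. Col6a3 had 419, 598 and 493 CPM in injured inputs and 354, 419 and 439 CPM in naive inputs, overlapping groups that did not pass (log2 fold change 0.32, SE 0.22, adjusted p = 0.314). The difference between chains was not tested.

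Among the short-chain network collagens Col10a1 (chromosome 10, 34389981 to 34397085, 3 exons), best known from cartilage that turns to bone, showed the largest fitted rise of the called matrix transcripts. It had 20.5, 42.9 and 28.3 CPM in injured inputs, against 0.514, 0.575 and 0.256 CPM in naive inputs, a 67.6-fold higher level (log2 fold change 6.08, SE 0.52, adjusted p = 9.82e-06). Its lowest injured library was above its highest naive one by a wide margin. Col8a2 fell by 1.92 on the log2 scale, while Col8a1 (0.34) and Col28a1 (0.00), a collagen known from peripheral nerve, did not pass. Col9a2, a chain of fibril-associated type IX collagen, fell (log2 fold change -1.81, SE 0.42, adjusted p = 0.00705), and so did Col23a1, a collagen anchored in the cell membrane, with 15.1, 9.60 and 19.1 CPM in injured inputs and 117, 92.1 and 102 CPM in naive inputs (log2 fold change -2.83, SE 0.30, adjusted p = 4.32e-05). Col14a1, which decorates fibrils, had 77.4, 128 and 103 CPM in injured and 73.1, 117 and 238 CPM in naive inputs and did not pass (-0.47).

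The role group of elastic fibres and microfibrils took in every Mfap and Fbln gene by name, and of its 12 tested transcripts 5 fell and 0 rose. Mfap5, which binds fibrillin microfibrils, had 10.6, 10.7 and 61.4 CPM in injured inputs, against 343, 432 and 649 CPM in naive inputs (log2 fold change -4.07, SE 0.61, adjusted p = 0.000457), the largest fall among the matrix transcripts. Injured input 3 was well above the other injured inputs, and all 3 were below every naive one. A coding form of Fbln1 fell by 2.18 and Fbln5, which guides elastin assembly, fell by 1.29 on the log2 scale. Mfap3l, a membrane protein placed in the group by its name alone, fell by 0.94. Eln, elastin itself, had 0.989, 1.05 and 0.649 CPM in injured and 8.15, 5.95 and 1.59 CPM in naive inputs (log2 fold change -2.56, SE 0.72, adjusted p = 0.0196), and its call was lost without injured input 2 or 3 or naive input 1 or 2 (adjusted p up to 0.0732). Fbn1, the fibrillin of microfibrils, had 313, 540.3 and 333 CPM in injured and 98.8, 179 and 335 CPM in naive inputs and did not pass (log2 fold change 0.95, SE 0.38, adjusted p = 0.0794), but without naive input 3 its adjusted p was 0.00699. Mfap1a (-0.30) and Mfap1b (-0.38), also grouped by name, are near-identical copies whose reads may have been split between them, and did not pass.

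Sparc, a secreted collagen-binding glycoprotein that helps newly made collagen assemble, fell in its coding form, with 7.42, 4.12 and 6.49 CPM in injured inputs and 73.1, 50.8 and 17.0 CPM in naive inputs (log2 fold change -2.99, SE 0.50, adjusted p = 0.000929). Its 3 listed transcripts are part of 9 annotated ones. Fn1, fibronectin of the provisional matrix, had 1156, 2114 and 2102 CPM in injured inputs and 927, 1221 and 1877 CPM in naive inputs, with overlap (log2 fold change 0.42, SE 0.31, adjusted p = 0.348). Of the collagen-modifying enzymes none of 3 tested transcripts passed: Lox, which crosslinks collagen and elastin, had 789, 882 and 1221 CPM in injured and 962, 987 and 1219 CPM in naive inputs (-0.13), and P4ha1, which hydroxylates proline, stood at -0.17 and a retained-intron form of P4ha2 at -0.08 on the log2 scale.

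Matrix metalloproteinases cut collagen and other matrix proteins, and here the called changes ran mainly upward, 4 higher and 1 lower of 11. Mmp14 (chromosome 14, 54431612 to 54441265), a collagenase anchored in the cell membrane that activates the Mmp2 proenzyme, had 1093, 1386 and 745 CPM in injured inputs, against 139, 174 and 85.7 CPM in naive inputs (log2 fold change 3.02, SE 0.32, adjusted p = 4.07e-05). Mmp8, the collagenase stored by neutrophils, had 42.0, 28.3 and 36.7 CPM in injured and 2.38, 0.470 and 0.461 CPM in naive inputs (log2 fold change 5.04, SE 0.62, adjusted p = 0.000123). Mmp13, the main interstitial collagenase of rodents, had 21.02, 19.5 and 16.8 CPM in injured and 1.93, 2.40 and 0.307 CPM in naive inputs (log2 fold change 3.62, SE 0.63, adjusted p = 0.00121). All 3 collagenases were higher in every injured than in every naive input, Mmp14 being by far the most abundant. Mmp27 rose as well (log2 fold change 3.77, SE 0.79, adjusted p = 0.00374). Mmp2, gelatinase A, went the other way, with 59.1, 69.0 and 86.1 CPM in injured inputs and 465, 685 and 771 CPM in naive inputs, 8.95-fold lower (log2 fold change -3.16, SE 0.27, adjusted p = 9.38e-06). A retained-intron form of Mmp12, the macrophage elastase, had 5, 11 and 46 counts in injured inputs and no count in naive inputs, at least 33.6-fold higher against a floor of 3 counts over the naive group. The exact 95% counting interval of this ratio began lower, at 26.5. It was too scarce for the test, and such floors and counting intervals cover counting error only. This Mmp12 form was listed through its injured counts, so nothing is read from the separation of its groups. Mmp3 (stromelysin 1) had 23.2, 22.1 and 11.3 CPM in injured and 14.3, 19.2 and 28.4 CPM in naive inputs and did not pass (-0.14). The other 5 tested, Mmp15, Mmp16, Mmp17, Mmp19 and Mmp23, had log2 fold changes between -1.23 and 1.20 and did not pass either.

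Mmp3, Mmp8, Mmp12, Mmp13 and Mmp27 lie in 1 cluster on chromosome 9, and the 60 bases before the start of each are shown because these neighbours differed in their calls. The sequences are RefSeq promoters on GRCm38.p6, all on the plus strand, and capitals mark the letters TGANTCA, those of the AP-1 site, where they occur.
Mmp8, chr9:7558369-7558428: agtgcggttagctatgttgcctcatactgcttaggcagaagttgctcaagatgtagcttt
Mmp13, chr9:7272454-7272513: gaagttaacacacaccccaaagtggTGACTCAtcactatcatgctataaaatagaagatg
Mmp27, chr9:7571336-7571395: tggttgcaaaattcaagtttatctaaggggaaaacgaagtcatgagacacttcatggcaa
Mmp12, chr9:7347314-7347373: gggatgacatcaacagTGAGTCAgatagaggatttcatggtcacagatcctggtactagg
Mmp3, chr9:7445762-7445821: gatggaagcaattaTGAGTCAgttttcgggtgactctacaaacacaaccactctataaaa
The letters stand 35 bases before the start of Mmp13, 44 before the Mmp12 start shown and 46 before that of Mmp3. They are in neither window of Mmp8 and Mmp27. Mmp12 has another RefSeq promoter, with its start at 7344397, that lacks the letters, and the one shown was picked because it holds them. Searched on both strands of 300-base promoters, they occurred in 2565 of 32851 (7.81%) and in 4 of 78 promoters of the 68 matrix genes with an entry. Mmp13 has the letters and rose, and Mmp3 has them and did not pass, while Mmp8 and Mmp27 lack them here and rose. Mmp12 was too scarce for the test, and a link between the letters and the calls was not tested.

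Of 19 ADAMTS transcripts 4 were higher and 4 lower. With library totals alone 0 were higher and 2 lower, Adamts2 and Adamtsl3. Adamts15, which cuts the proteoglycans aggrecan and versican, had 168, 194 and 107 CPM in injured inputs and 70.2, 57.1 and 71.1 CPM in naive inputs (log2 fold change 1.24, SE 0.26, adjusted p = 0.00386), and Adamts12 rose by 1.14 on the log2 scale. Adamts12 has been linked to cartilage matrix turnover. Adamts6 rose by 1.72, on 219 counts over the injured and 117 over the naive inputs, and its call was lost without injured input 1 or 3 or any single naive input (adjusted p up to 0.0977). Adamts2, the enzyme that trims the amino end of procollagen, had 83.1, 83.5 and 82.1 CPM in injured inputs and 138, 214 and 248 CPM in naive inputs (log2 fold change -1.27, SE 0.25, adjusted p = 0.00262). Adamts5, another aggrecan-cutting enzyme, fell by 0.92 (adjusted p = 0.0587 without injured input 2), and Adamtsl3, a relative without a protease domain, fell by 2.84. The groups of Adamts2 and Adamts15 did not overlap, in opposite directions. The 11 ADAMTS transcripts that did not pass lay between -1.36 and 0.98.

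The tissue inhibitors of metalloproteinases moved apart. Timp1 had 6, 20 and 38 counts in injured inputs and 2, 0 and 0 counts in naive inputs, a ratio of levels of 52.0 with an exact 95% counting interval of 13.8 to 439 (adjusted p = 0.00289). Its listed transcript is 1 of 2 annotated and was scarce in all libraries. Like the Mmp12 form, it was listed through its injured counts, which limits what its ratio and adjusted p can show. Timp3, which binds to the matrix, fell, with 51.4, 39.4 and 54.0 CPM in injured and 189, 137 and 93.9 CPM in naive inputs (log2 fold change -1.54, SE 0.29, adjusted p = 0.00183). Exons of Syn3 on the other strand cover 36.7% of that transcript, and the sources used here do not say whether counting respected strand. Timp2 had 973, 884 and 789 CPM in injured and 1028, 1069.9 and 1317 CPM in naive inputs and did not pass (log2 fold change -0.37, SE 0.21, adjusted p = 0.229).

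Among other genes of the collagen pathway, 25 transcripts of folding, export and crosslinking factors were tested, of which 4 rose and 7 fell. The lysyl hydroxylase Plod2 (2.22), the collagen galactosyltransferase Colgalt1 (1.72), Loxl1 (1.14) and Fkbp10 (0.77) rose on the log2 scale. The procollagen C-proteinase enhancer Pcolce2 (-3.66), the prolyl 3-hydroxylase P3h2 (-2.99), the prolyl hydroxylation cofactor Crtap (-2.24), the collagen mRNA-binding protein Larp6 (-1.70), the C-proteinase Bmp1 (-1.52), Ppib (-1.31) and P4hb (-0.97) fell. Of 13 transcripts of collagen uptake and breakdown 9 rose and 0 fell, among them the urokinase receptor Plaur (2.93), urokinase Plau (2.44) and the lysosomal cathepsins Ctsl (2.76) and Ctsb (2.62). Of 18 TGF-beta pathway transcripts 3 rose (Tgfb2 1.21, Tgfbr1 1.04, Cyr61 0.85) and 3 fell (Tgfb3 -1.41, Tgfbr3 -1.16, Tgfbi -0.73).

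Cell type markers moved with these genes. Of 7 perineurial transcripts 6 fell and 0 rose, and their sum was 275 to 450 CPM in injured inputs against 1374 to 2069 CPM in naive inputs. Of 8 nerve fibroblast transcripts 3 fell and 1 rose, with sums of 1415 to 1732 CPM in injured and 4152 to 8647 CPM in naive inputs. Gelsolin (Gsn) made up 38.8% to 45.8% of the injured and 81.9% to 87.6% of the naive sums. Without it the sums overlapped, at 813 to 950 CPM in injured and 745 to 1075 CPM in naive inputs. Gsn led the fall at -3.00, Thy1 rose by 2.47 and Dpt stood at -0.08; Pdgfra and Cd34 were not tested. Of 11 macrophage transcripts 8 rose, with sums of 6993 to 9451 CPM in injured and 720 to 1403 CPM in naive inputs, and all 3 neutrophil transcripts tested rose, with sums of 59.9 to 110.02 CPM in injured and 1.67 to 6.45 CPM in naive inputs. All 5 adipocyte and 4 of 5 skeletal muscle transcripts fell, as did all 4 of red blood cells. Of 7 Schwann cell transcripts 5 fell and 1 rose. Of 7 endothelium and pericyte transcripts 2 rose and 1 fell, with sums of 627 to 793 CPM in injured and 384 to 560 CPM in naive inputs. The part of these shifts in the matrix results was not tested.

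The number of matrix calls moved with the scaling. Scaled by library totals alone, 7 transcripts rose and 29 fell in place of 14 and 34, and the median over all transcripts became -0.26 on the log2 scale, so the fold changes given here are set against the median transcript. The table of inputs lists only transcripts with at least 5 counts in injured inputs 2 and 3, so matrix transcripts lost entirely after injury would not be in it. A transcript scarce in naive inputs could be listed only through its injured counts, so among scarce transcripts rises are favoured over falls.

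The next comparison asked how matrix RNA in the nucleolin IP differed with injury. Nucleolin is a multifunctional RNA-binding protein of nucleolus and cytoplasm, and RNA in its IP can be bound or carried along. Of 89 matrix transcripts tested, Mmp14 rose and Fmod, Col23a1 and Mmp2 fell, 4 in all, where 0.828% of all 11840 transcripts were called (0.397% higher, 0.431% lower). Mmp14 had 1256, 1246 and 957 CPM in injured nucleolin IP 1, 2 and 3 and 208, 284 and 202 CPM in naive nucleolin IP (log2 fold change 2.32, SE 0.47, adjusted p = 0.0415). Fmod had 10.1, 8.08 and 19.4 CPM in injured IP and 86.3, 131 and 165 CPM in naive IP (log2 fold change -3.34, SE 0.60, adjusted p = 0.0297). Col23a1 had 18.3, 26.2 and 28.1 CPM in injured IP and 171, 157 and 145 CPM in naive IP (log2 fold change -2.70, SE 0.47, adjusted p = 0.0297). The IP groups of each were well apart, in the direction seen in the input. Mmp2 had 111, 111 and 197 CPM in injured IP and 387, 599 and 683 CPM in naive IP (log2 fold change -1.99, SE 0.42, adjusted p = 0.0437). These calls rested on all 6 libraries: without any single one of them no matrix transcript was called, while with the replicate number as a block, which the paired deviations of same-number libraries allowed here, 14 were called (3 higher and 11 lower).

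The same contrast in the blocked nucleolin libraries, which hold RNA carried along without free antibody, called 8 matrix transcripts, 3 higher and 5 lower, where 1.55% of all transcripts were called (0.735% higher, 0.819% lower). Mmp14 rose again (log2 fold change 3.31, SE 0.49, adjusted p = 0.0122), with 1553, 1227 and 1048 CPM in injured blocked and 49.8, 141 and 195 CPM in naive blocked libraries. Col27a1 rose by 2.45, and Fmod (-3.05), Col6a5 (-3.13), Prelp (-2.43), Timp3 (-2.38) and Mmp2 (-1.97) fell on the log2 scale. The retained-intron form of P4ha2 had 258, 326 and 33 counts in injured blocked libraries and 0, 0 and 1 in naive ones, a ratio of 609 with an exact 95% counting interval of 109 to 24074. With the 6 blocked libraries fitted alone no matrix transcript was called. The count of 8 became 2 without injured blocked 1, naive blocked 1 or naive blocked 2, and 1 without injured blocked 2.

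In the PTBP1 IP no matrix transcript was called between injured and naive nerve among 108 tested, where 0.00688% of all 14540 transcripts were called by edgeR's quasi-likelihood test. At an unadjusted p under 0.05 there were 24, 7 higher and 17 lower, against 10.3% of all transcripts (4.94% higher, 5.36% lower). DESeq2 called 8 matrix transcripts, and 712 of all 15041 listed. Mfap5 came nearest, with 43.5, 64.4 and 58.0 CPM in injured PTBP1 IP and 1247, 1212 and 452 CPM in naive PTBP1 IP (log2 fold change -4.13, SE 0.61, adjusted p = 0.0548). Its groups did not overlap. In blocked PTBP1 libraries there were 0 calls (0.0275% of all), with Mmp2 nearest (log2 fold change -2.85, SE 0.54, adjusted p = 0.079). There were 29 at an unadjusted p under 0.05 (6 higher, 23 lower, against 21.7% of all, 10.7% higher and 10.9% lower). DESeq2 called 23 there, and 2517 of all 15041 listed.

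Transcripts called in the input had mostly the same sign in the IP sets. The libraries are separate, but input is RNA of the extract that the IPs started from, so the sets may share nerve pools. Of those tested, 6 of 6 higher and 31 of 32 lower ones kept their sign in nucleolin IP, 6 of 6 and 30 of 32 in blocked nucleolin, 13 of 14 and 33 of 33 in PTBP1 IP, and 10 of 14 and 31 of 33 in blocked PTBP1. Over all transcripts called in the input the shares were 97.0% and 97.8% in nucleolin IP, 91.0% and 93.8% in blocked nucleolin, 89.1% and 96.1% in PTBP1 IP and 83.6% and 88.7% in blocked PTBP1. The matrix transcripts were therefore close to the rest in this respect.

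**Figure D3:**
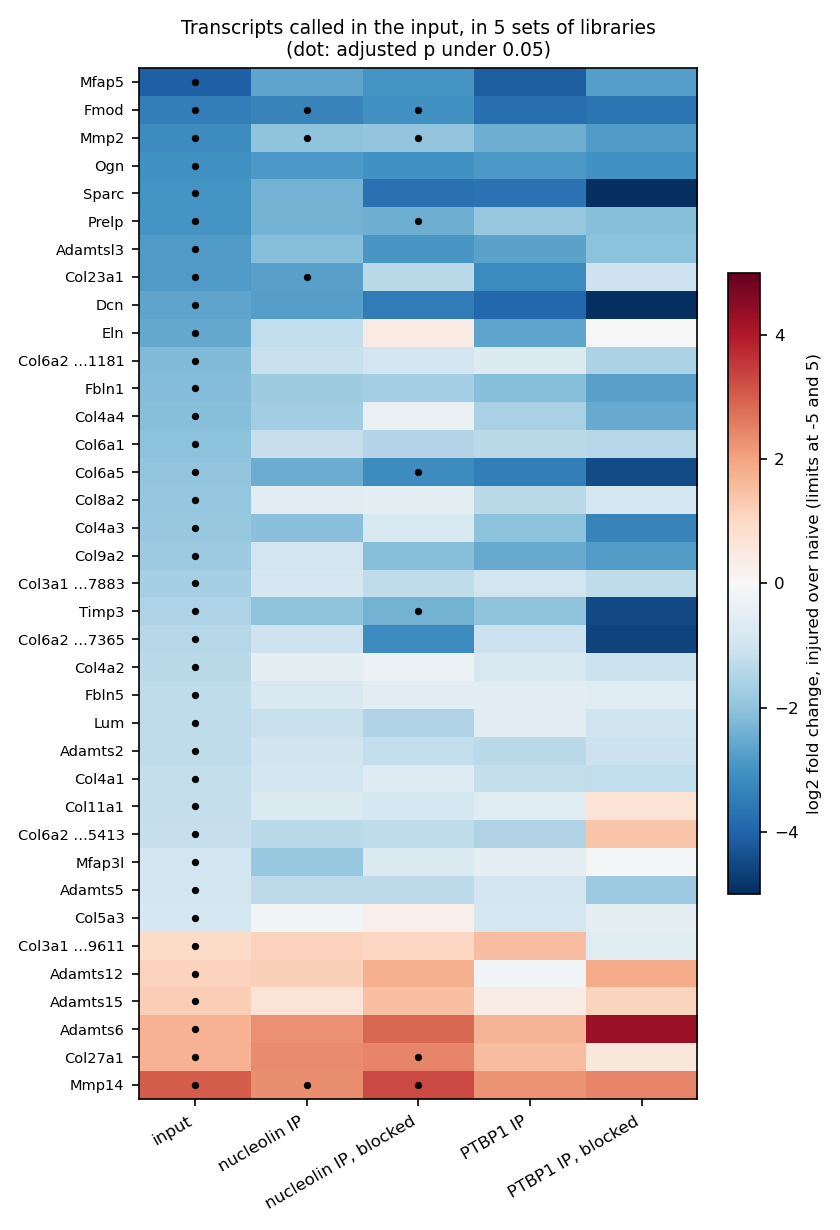
Log2 fold change, injured over naive (colour, limits at -5 and 5), of the 37 matrix transcripts that were called in the input and tested in all 5 sets of libraries (columns), 31 lower and 6 higher in the input. A dot marks an adjusted p under 0.05 within a set; blue rows stay mostly blue and red rows mostly red across the columns, and dots outside the input column are few.

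The blocked IP is the control for RNA that comes down without free antibody. For nucleolin no matrix transcript was called against the blocked IP in injured or naive nerve, as for all 11840 transcripts (0% called in both), by edgeR's quasi-likelihood test. At an unadjusted p under 0.05 there were 7 in injured nerve (6.49% of all) and 7 in naive nerve (12% of all). DESeq2 called 2 and 5 matrix transcripts, and 322 and 762 of all 11862 listed. The change of this ratio with injury called 0 (0% of all), with 2 at an unadjusted p under 0.05 (2.55% of all) and 1 by DESeq2 (20 of all 11862 listed). The matrix transcript called by DESeq2 was P4ha2, whose retained-intron form had a log2 fold change of -10.0 (SE 1.85, unadjusted p = 0.000115 by edgeR's test). It did not pass there after adjustment, and its naive blocked libraries held 0, 0 and 1 counts. Every IP library lay above every blocked one for 11 matrix transcripts in injured nerve and 12 in naive nerve, where the shares of all transcripts were 12% and 12.3%.

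Bgn was nearest the threshold in injured nerve. On the scale of the 12 nucleolin libraries it had 9057, 5683 and 2197 CPM in injured nucleolin IP and 742, 221 and 656 CPM in injured blocked IP (log2 fold change 3.39, SE 0.81, adjusted p = 0.157), and 15884, 10441 and 1941 CPM in naive IP against 698, 319 and 743 CPM in naive blocked IP (log2 fold change 4.01, SE 0.84, adjusted p = 0.0662). The IP libraries were all higher, with libraries 1 and 2 far above library 3. Adamts14, a procollagen N-proteinase like Adamts2, had 964, 494 and 173 CPM in injured IP and 57.0, 98.5 and 132 CPM in injured blocked IP (log2 fold change 2.502), and Adamts12 differed by 3.35 in injured and 3.95 in naive nerve. Mfap3l, a membrane protein that shares its name with microfibril genes, had 969, 885 and 593 CPM in naive IP and 175, 138 and 303 CPM in naive blocked IP (log2 fold change 1.99, SE 0.42, adjusted p = 0.0662). None of these passed, and the lowest adjusted p of any matrix transcript in naive nerve was 0.0627. In naive nerve 3 matrix transcripts passed without naive IP 3 or without naive blocked IP 3, and Bgn and Mfap3l passed without all libraries numbered 3, a choice made after the data were seen.

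Against the input, 1 matrix transcript passed in each condition, higher in nucleolin IP. In injured nerve Adamts14 (chromosome 10, 61197112 to 61273438, 22 exons) passed, where 0.404% of all 10891 transcripts were called (0.367% higher): on the scale of IP, blocked and input libraries together it had 877, 439 and 154 CPM in injured IP and 21.4, 46.5 and 31.4 CPM in injured input (log2 fold change 3.88, SE 0.83, adjusted p = 0.0467). Bgn and Col5a3 lay just outside (log2 fold change 3.19, SE 0.69, adjusted p = 0.0517 and log2 fold change 1.57, SE 0.37, adjusted p = 0.058) and passed with the replicate block (3 calls). The labels give numbers alone, so whether these libraries were paired is uncertain. In naive nerve Bgn passed, where 1.06% of all were called (1.05% higher), with 15430.4, 9906 and 1811 CPM in naive IP and 882, 745 and 603 CPM in naive input (log2 fold change 3.61, SE 0.71, adjusted p = 0.0177). The blocked libraries held 661, 309 and 660.4 CPM, near the input. Both calls were lost without IP 1 or IP 2 or any single input of their condition (0 matrix calls). Without IP 3 there were 3 calls in injured and 5 in naive nerve.

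**Figure D4:**
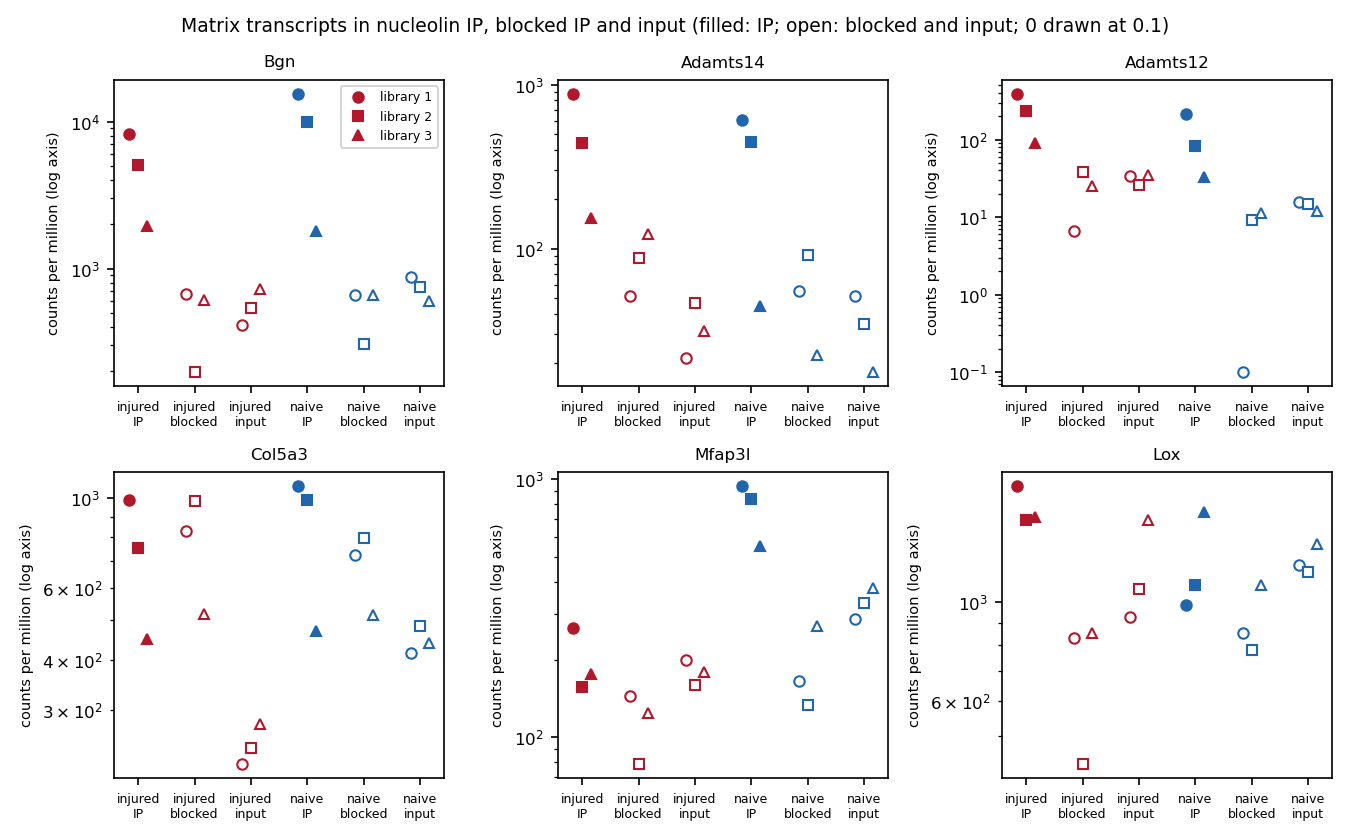
Level of 6 matrix transcripts (panels) in each nucleolin IP (filled), blocked IP and input library (open), injured (red) and naive (blue), in CPM on a log axis; circles, squares and triangles are libraries 1, 2 and 3, and 0 is drawn at 0.1. In injured and naive IP alike, Bgn, Adamts14 and Adamts12 are highest in library 1 and lowest in library 3, and Bgn in IP is above all blocked and input libraries.

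PTBP1 binds runs of pyrimidines (C and U in RNA), represses exons in the nucleus and acts on stability and translation in the cytoplasm. Matrix transcripts took 11.3%, 9.54% and 5.82% of all counts in injured PTBP1 IP 1, 2 and 3, against 3.30%, 5.08% and 4.73% in injured blocked IP. In naive nerve they took 10.0%, 7.95% and 5.89% in IP, against 2.95%, 4.18% and 5.63% in blocked IP. In both conditions every IP library was above every blocked one, by little in library 3. A few transcripts carried these shares. Col1a1 made up 74.0% and 62.2% of the matrix counts in injured IP 1 and 2, and Bgn 66.2% and 53.8% in naive IP 1 and 2. Outside the 3 most abundant matrix transcripts of each library the shares were 1.06%, 1.08% and 2.51% of all counts in injured IP, against 1.14%, 1.64% and 2.30% in injured blocked IP. In naive nerve they were 1.47%, 2.17% and 3.19% in IP, against 1.58%, 2.39% and 3.01% in blocked IP, so IP and blocked libraries overlapped in both conditions.

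Tested one by one, no matrix transcript passed in PTBP1 IP over blocked IP in injured or naive nerve, nor did any of all 14540 (0% called in both), by edgeR's quasi-likelihood test. At an unadjusted p under 0.05 there were 15 in injured nerve (14 higher, 1 lower, against 12.5% of all, 10.8% higher and 1.71% lower) and 16 in naive nerve (13 higher, 3 lower, against 13% of all, 11.5% higher and 1.51% lower). DESeq2 called 11 and 10 matrix transcripts, and 962 and 1128 of all 15041 listed. The change with injury called 0 (0% of all). There were 6 at an unadjusted p under 0.05, where 7.89% of all were, and 1 by DESeq2 (431 of all 15041 listed). In counts simulated for injured PTBP1 IP over blocked IP, edgeR's test found 3 of 50 transcripts changed 16-fold and none of 50 changed 8-fold. Every IP library lay above every blocked one for 21 matrix transcripts in injured nerve, against 16.6% of all, and for 6 in naive nerve, against 9.26%.

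Col1a1 (chromosome 11, 94936224 to 94953042, 51 exons) had the highest levels of these in injured PTBP1 IP. It had 146936, 83555 and 12739 CPM there, 7809, 9721 and 5744 CPM in the injured blocked libraries and 5891, 6843 and 5406 CPM in injured input, on the scale of IP, blocked and input libraries together. In naive nerve it had 14979, 9781 and 6601 CPM in IP, 4739, 4107 and 4947 CPM in blocked IP and 4449, 4232 and 5808 CPM in input. Injured IP 1 and 2 stood far above everything else, and injured IP 3 did not stand above naive IP 1. Against the input it passed in injured nerve (log2 fold change 3.75, SE 0.67, adjusted p = 0.0238) but not in naive nerve (1.11); against the blocked IP it did not pass (log2 fold change 3.35, SE 0.71, adjusted p = 0.217), nor did the change of that ratio with injury (log2 fold change 2.19, SE 0.93, adjusted p = 0.591). Its partner Col1a2 had only 5825, 4446 and 8146 CPM in injured PTBP1 IP, against 5719.6, 7213 and 8415 CPM in injured input. The 2 chains, which form 1 protein, were thus recovered unequally, a difference that was not tested.

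Against the input, 3 matrix transcripts passed in injured nerve, all higher, where 0.96% of all 12393 were higher (1.02% called in all): Col1a1, Bgn and the coding transcript of Col6a2 that runs from 76597835 to 76623325 on chromosome 10 (minus strand). In naive nerve 3 passed, all higher, where 0.21% of all were higher (0.218% called): Bgn, the same Col6a2 transcript and the retained-intron form of P4ha2. Bgn (chromosome X, 73483602 to 73495933, 8 exons) had 27033, 31220.2 and 5160.3 CPM in injured PTBP1 IP and 320.4, 435 and 564 CPM in injured input (log2 fold change 5.59, SE 1.20, adjusted p = 0.0329), and 111343, 47076 and 3377 CPM in naive IP against 710.03, 609.8 and 508 CPM in naive input (log2 fold change 6.47, SE 1.25, adjusted p = 0.0474). Its blocked libraries were also above input, with 11049, 14874 and 1017 CPM in injured and 8129, 2994 and 1014 CPM in naive blocked IP. The excess over input was thus present, in lesser size, where the antibody had been blocked.

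This Col6a2 transcript had 4838, 3746 and 444 CPM in injured PTBP1 IP, 1432, 2265 and 65.7 CPM in the injured blocked libraries and 52.8, 34.6 and 25.7 CPM in injured input (log2 fold change 6.32, SE 1.32, adjusted p = 0.032 over input). In naive nerve it had 17228, 6755 and 558 CPM in IP, 837, 435 and 124 CPM in blocked IP and 89.0, 88.3 and 77.9 CPM in input (log2 fold change 6.59, SE 1.34, adjusted p = 0.0497). The other coding transcript of the same gene (76595762 to 76623630) was the main one in the input but had only 893, 492 and 510.4 CPM in injured IP and 101, 128 and 229 CPM in injured input (log2 fold change 2.05, SE 0.50, adjusted p = 0.0545), and 1075, 751 and 1119 CPM in naive IP and 503, 716 and 913 CPM in naive input. The transcripts differ at both ends. In nucleolin IP the first had 29.0, 24.0 and 32.6 CPM in injured IP, against 67.5, 42.9 and 33.0 CPM in injured input, and was not higher.

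The retained-intron form of P4ha2, a prolyl hydroxylase of collagen, had 144, 83.9 and 27.2 CPM in injured PTBP1 IP, 147, 226 and 16.1 CPM in the injured blocked libraries and 4.76, 1.66 and 2.30 CPM in injured input. In naive nerve it had 618, 184 and 22.3 CPM in IP, 398, 129 and 29.6 CPM in blocked IP and 3.98, 2.13 and 3.10 CPM in input (log2 fold change 6.48, SE 1.30, adjusted p = 0.0492). Its blocked libraries were above the input as well, and IP and blocked groups overlapped. Col14a1 had 1064, 639 and 230.2 CPM in injured PTBP1 IP, 49.5, 73.2 and 111 CPM in the injured blocked libraries and 70.9, 125 and 101 CPM in injured input, just outside the threshold (log2 fold change 2.70, SE 0.66, adjusted p = 0.0544). Its blocked libraries were not above input.

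**Figure D5:**
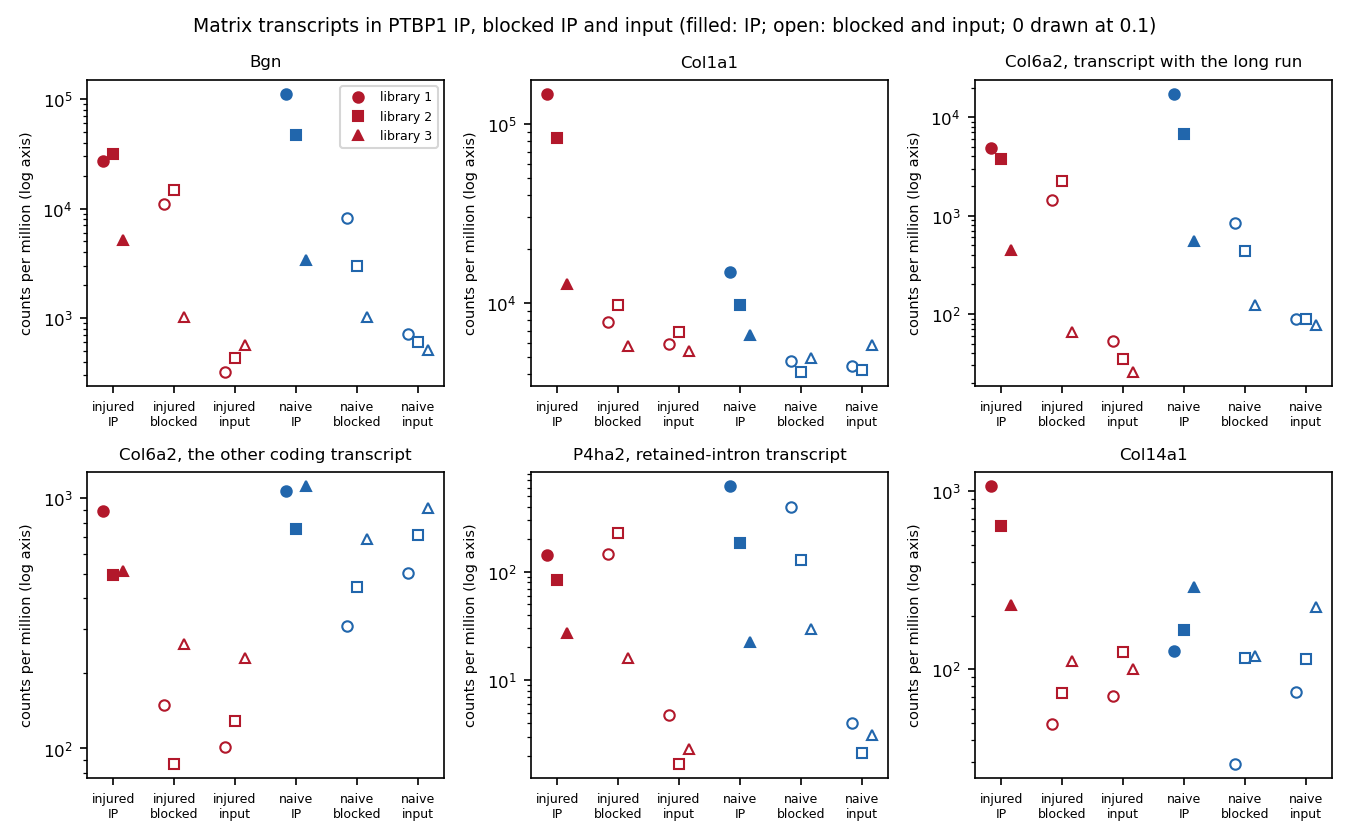
Level of 6 matrix transcripts (panels) in each PTBP1 IP (filled), blocked IP and input library (open), injured (red) and naive (blue), in CPM on a log axis; circles, squares and triangles are libraries 1, 2 and 3, and 0 is drawn at 0.1. Libraries 1 and 2 of the IP are high and library 3 lower for Bgn, Col1a1 and the Col6a2 transcript with the long pyrimidine run, and blocked libraries 1 and 2 of Bgn, this Col6a2 transcript and P4ha2 are also above the input.

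Stretches of these transcripts are shown because PTBP1 binds pyrimidine runs and they differ in the longest run they hold. They are written as DNA from GENCODE M21 transcripts on GRCm38, in the direction of the transcript, and capitals mark the longest unbroken run of C and T; for runs over 30 bases the first 30 are shown.
Col6a2, the transcript high in PTBP1 IP, 3′ UTR, minus strand, chr10:76599217-76599246, run of 161: CCTCTTCTTCCTCCTCCTCCTTCTCCTCCT
Col6a2, the other coding transcript, 5′ UTR, minus strand, chr10:76623520-76623549, run of 22: ctcgCCTTCCTTTCCTCCCCTCCCCCagct
Col1a1, 3′ UTR, plus strand, chr11:94952229-94952257, run of 23: ccaCTTTTTTCTCTCCCCCCCCCCCCagg
Bgn, 3′ UTR, plus strand, chrX:73495118-73495146, run of 15: gcatgtgTTCCTCCTCTTCCTTgctcatg
P4ha2, retained-intron form in the input and PTBP1 tables, plus strand, chr11:54127690-54127718, run of 19: aggggTTTCCCTCTTTTTTTTCTTagcac
P4ha2, retained-intron form listed in the PTBP1 table alone, plus strand, chr11:54128117-54128146, run of 189: CCTCCCTCCCTCTCCTCTCTCTCTTTTCTC
The run of 161 belongs to the Col6a2 transcript that was high in PTBP1 IP, and the other coding transcript does not hold it. Bgn, with a longest run of 15, equals the median over the 93 coding matrix transcripts, where the median over all 12641 coding transcripts was 14, so a long run was not shared by the matrix transcripts high in PTBP1 IP.

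Over all transcripts the longest run and the level in PTBP1 IP over input went together. In injured nerve the median log2 fold change was -0.56 for the 2325 transcripts with a longest run of up to 10, -0.10 for 7799 with 11 to 20, 0.33 for 1230 with 21 to 30, 0.91 for 486 with 31 to 50 and 3.14 for 331 with over 50. In naive nerve the medians of these classes were -0.29, -0.07, 0.14, 0.49 and 3.02, so both conditions showed the same order. In nucleolin IP over input the top class had 0.24 in injured and 0.39 in naive nerve. Of the matrix transcripts also listed in the input table, 2 were in the top class, the Col6a2 transcript and Col4a4 with a run of 64, and Col4a4 had 18.8, 11.8 and 3.26 CPM in injured PTBP1 IP against 2.04, 3.64 and 6.31 CPM in injured input and did not pass. These are descriptions across transcripts, which share libraries and depth.

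Fibroblast markers summed to 543 to 1182 CPM in injured PTBP1 IP against 1296 to 1697 CPM in injured input, and 1587 to 6740 CPM in naive IP against 4216 to 8067 CPM in naive input, over 7 transcripts with 0 called. The naive sums overlapped. With the inputs fitted alone, Gsn made up 81.9% to 87.6% of the naive sums, and no sum without it was made for the PTBP1 libraries. The part of fibroblast RNA in the PTBP1 matrix results was not tested. The comparisons with input depended on libraries and fit. Without injured PTBP1 IP 1 or 2 or any single injured input, 0 matrix transcripts passed in injured nerve, and without naive PTBP1 IP 1 or 2 or any single naive input 0 passed in naive nerve. In naive nerve 0 passed with DESeq2's size factors in the edgeR fit or with the 2 groups fitted alone, while DESeq2's own test called 5 (399 of all 12399 listed).

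The 31 matrix transcripts outside the input table were listed in the IP tables alone, 14 of them protein-coding, and 15 matrix genes had no transcript in the input table. They are given as deposited counts, not scaled for depth. A transcript is listed in an IP table only with 5 or more counts in every library of some group, so one that is high in a single group had to stand apart, and nothing is read from the separation of such groups. Tenascin-C (Tnc), a matrix glycoprotein of injured nerve, had 77, 79 and 16 counts of 1 transcript in injured nucleolin IP and 0, 0 and 14 in injured blocked IP, and passed the filter through the IP group. Another Tnc transcript had 43, 9 and 31 counts in injured nucleolin IP and 128, 7 and 5 in injured blocked IP, which overlapped. The coding transcript of Mmp12 had 29, 57 and 53 counts in injured nucleolin IP and 32, 0 and 16 in injured blocked IP, and these groups overlapped too. Mmp11, a metalloproteinase of remodelling stroma, had 204, 332 and 143 counts in naive nucleolin IP and 0, 6 and 159 in naive blocked IP, again with overlap. Timp4, an inhibitor of metalloproteinases, had 0, 101 and 131 counts in naive PTBP1 IP and 4320, 5062 and 242 in naive blocked IP, the group that passed the filter. In injured nerve it had 1, 0 and 2 counts in PTBP1 IP against 1578, 0 and 0 in blocked IP, and 1, 80 and 18 in nucleolin IP against 924, 111 and 52 in blocked IP, with overlap in both. Col25a1, a membrane-spanning collagen of neurons, had 131, 29 and 12 counts in injured PTBP1 IP, through which it passed the filter, and no count in injured blocked IP. In naive nerve it had 0, 95 and 18 counts in PTBP1 IP and no count in blocked IP.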

How the data were processed

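Total RNA of sciatic nerve axoplasm and RNA of nucleolin and PTBP1 IPs were sequenced in 30 libraries. The authors deposited whole-number read counts, 1 row for each Ensembl transcript. The submitters' processing notes name CASAVA 1.8.2, edgeR and the mouse builds mm10 and GRCm38; the sources used here give no aligner, counting tool, annotation release or use of strand. The tables hold only transcripts past a low-count filter: for the IP tables a minimum of 5 counts in every library of some group, and in the table of inputs at least 5 in injured inputs 2 and 3. A further 114 columns of per-sample values were not used. Because the filter leaves out scarce transcripts, library totals are sums over listed transcripts, and precision follows from these totals and from the spread of 3 libraries per group.

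Samples were grouped by their labels. Counts were scaled by TMM and tested with edgeR 4.0.16 (quasi-likelihood test with Benjamini-Hochberg adjustment over all transcripts tested) after edgeR's filter on low counts, in R 4.3.3, with limma 3.58.1 loaded by edgeR and DESeq2 1.42.0 as another test; tables were handled in Python 3.11.15 with pandas 2.3.3, numpy 2.4.6 and scipy 1.17.1 and drawn with matplotlib 3.10.9. Inputs were fitted alone, IP and blocked libraries of each antibody together, and IP against input in fits over the transcripts shared by the tables. This made 15 comparisons. CPM values are TMM-scaled. Alternatives were DESeq2's size factors, library totals, DESeq2's own test, no further filter, a replicate block, only the groups compared, each library left out in turn, counts summed by gene, 3 abundant transcripts left out before scaling, and, added after the data were seen, no libraries numbered 3 and each nucleolin table alone. The matrix genes, role groups and gene lists were chosen with earlier results of these data known. Named transcripts were those past the threshold with the largest changes (up to 10 per direction and comparison), the 2 most abundant genes of each role group, a list of well-known members, and genes with transcripts called in opposite directions. Others named in the text, among them the transcripts near a threshold in the IP comparisons, the type VI chains and the transcripts outside the input table, were chosen after their values were seen.

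Replicate numbers in the labels were checked for pairing, by the correlation of deviations of same-number libraries from their group means, with a minimum of 0.1 in every pair. This held for nucleolin IP, injured against naive (0.3324, 0.1193 and 0.5551), for injured nucleolin IP against input (0.1515, 0.1777 and 0.2026) and for injured PTBP1 IP against blocked IP (0.1128, 0.1418 and 0.3131). The highest correlations between different numbers were 0.144, -0.01 and 0.0664, so in the first of these it exceeded the same-number value of 0.1193. The block was fitted over all libraries of a fit, also those whose pairs were below the minimum. On simulated counts with 50 transcripts per fold size, the input test found 7 of those changed 2-fold, 39 changed 4-fold, 48 changed 8-fold and 50 changed 16-fold. For injured nucleolin IP over blocked IP it found 0, 3, 22 and 22, and for injured PTBP1 IP over blocked IP 0, 0, 0 and 3.

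Transcript IDs were matched to GENCODE M21 on GRCm38 for 19974 of 20423 (97.8%) and for 135 of the 136 matrix transcripts. Promoters are from RefSeq.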

Additional observations from a re-analysis of the deposited data

How the results depend on the processing

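In the input comparison 48 matrix transcripts were called. The count was 36 with library totals (36 of them shared with the 48), 48 with DESeq2's size factors, 53 by DESeq2's test (4683 of all 15006 listed) and 51 with the replicate block. It lay between 38 and 46 when single inputs were left out. Some values past no threshold changed sign. A processed form of Timp3 had 0.20, and -0.051 with library totals. With single inputs left out, a retained-intron form of Sparc ran from -0.85 to 0.57, with -0.18 under the replicate block, a retained-intron form of Col1a2 from -0.47 to 0.62, P4ha1 from -0.38 to 0.063, and Col14a1 from -0.80 to 0.10 (log2 fold changes). The cause was not tested.

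With the replicate block, 14 matrix transcripts were called for injury in nucleolin IP in place of 4, and 3 for injured nucleolin IP against input in place of 1. In these comparisons every same-number pair exceeded the minimum correlation of 0.1, which does not establish that the libraries were paired. Where not every same-number pair exceeded that minimum, the block gave 19 for injury in blocked nucleolin (8 without it), 4 for naive nucleolin IP against input (1), 2 for injury in PTBP1 IP (0), 2 for injury in blocked PTBP1 (0) and 6 for injured PTBP1 IP against input (3). It moved no other count of calls by over 1.5 times.

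DESeq2's test called 2 matrix transcripts for nucleolin IP over blocked IP in injured nerve, 5 in naive nerve and 1 for its change with injury. Over all 11862 listed transcripts it called 322, 762 and 20. It called 15 for injury in nucleolin IP, 23 in blocked nucleolin, and 6 (injured) and 5 (naive) for nucleolin IP against input. Over all listed transcripts these were 729 and 1621 of 11862, and 717 and 601 of 10893 against input. For PTBP1 it called 11 (injured), 10 (naive) and 1 (change with injury) over blocked IP, 8 for injury in IP, 23 in blocked IP, and 8 (injured) and 5 (naive) against input. Over all 15041 listed transcripts it called 962, 1128 and 431 over blocked IP, and 712 and 2517 for injury. Against input it called 669 (injured) and 399 (naive) of all 12399. With only the groups compared there were 11 calls for injury in nucleolin IP, 0 in blocked nucleolin, 6 (injured) and 3 (naive) for nucleolin IP against input, and 8 (injured) and 0 (naive) for PTBP1 IP against input. DESeq2's size factors gave 2 (injured) and 2 (naive) for nucleolin and 6 (injured) and 0 (naive) for PTBP1 IP against input. Library totals gave 1 for naive nucleolin IP over blocked IP and 3 (injured) and 2 (naive) for nucleolin IP against input.

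Without the libraries numbered 3 there were 2 calls for naive nucleolin IP over blocked IP, 0 for injury in nucleolin IP, 5 in blocked nucleolin, 4 (injured) and 7 (naive) for nucleolin IP against input, 1 (injured) and 2 (naive) for PTBP1 IP over blocked IP, 1 for injury in PTBP1 IP and 7 for injured PTBP1 IP against input. Leaving out single libraries gave 0 to 3 for naive nucleolin IP over blocked IP and 0 to 0 in injured nerve and for its change, 0 to 0 for injury in nucleolin IP, 1 to 9 in blocked nucleolin, and 0 to 3 (injured) and 0 to 5 (naive) for nucleolin IP against input. For PTBP1 it gave 0 to 1 (injured), 0 to 0 (naive) and 0 to 0 (change) over blocked IP, 0 to 1 for injury in IP, 0 to 0 in blocked IP, and 0 to 6 (injured) and 0 to 3 (naive) against input. For named transcripts, 418 of 458 values under the other settings kept their direction and their side of the threshold, and 305 of 438 with a library left out. In counts simulated for injured PTBP1 IP over blocked IP, edgeR's test found 3 of 50 differences of 16-fold.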
